A study of Mus musculus with 15 samples.

Results

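The comparison set mouse macrophages polarised with IL-4 and IL-13 and given 10058F4, a small-molecule MYC inhibitor, against macrophages polarised the same way without an added agent (M2). The members are the arrays that carry these labels, 3 M2+10058F4 arrays and 3 M2 arrays, which are 6 of the 15 arrays of a study of macrophage polarisation whose title names p53. All cells were macrophages derived from mouse bone marrow and kept for 7 days in M-CSF, which turns marrow precursors into macrophages. The groups compared here were M2+10058F4, M2+nutlin-3a (an agent that frees p53 from MDM2), M2 and M0, the last left without polarising cytokines, with 3 arrays each. The 3 arrays of M1 cells, polarised with LPS and interferon-gamma, were not compared. They did enter the filter, the choice of probe sets and the spread behind the errors and p-values. The sources used here give no strain, age, dose, exposure time or vehicle, so an effect of 10058F4 and one of a vehicle cannot be told apart. Samples are labelled biological replicates, with no word on separate mice or cultures. The p-values therefore rest on the spread between these samples alone, and that spread may be technical.

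MYC is a transcription factor that binds DNA as a pair with MAX, at the E-box CACGTG and related sequences. The pair is best known for raising genes of ribosome assembly, nucleotide synthesis and cell division, and MYC is also known to hold down cell cycle inhibitors such as p21 and p27. 10058F4 keeps MYC from pairing with MAX, so it acts on the protein and not on the Myc transcript. In macrophages, IL-4 and IL-13 act through STAT6 to induce genes such as Arg1, Retnla and Chil3, and in human macrophages IL-4 is known to raise MYC as well.

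With 10058F4, 12 of 19 tested genes usually induced by glucocorticoids rose, led by Fkbp5 at 26.3-fold, and several clock, stress and lipid genes rose too. The gene lists counted here and below were drawn up with earlier results of these data known. In the list of NF-kappa-B subunits and inhibitors 11 of 18 fell and 3 rose. Over all tested genes 10.6% rose and 10.2% fell. Of inflammatory (M1) markers 8 of 23 fell, as did 4 of 11 MHC class II and 5 of 16 MHC class I presentation genes, Cd40 and Psmb10 among them, and the rest of these 3 lists did not pass the test. M2 markers split, with Fabp4 and Socs2 higher and Irf4, Retnla and Egr2 lower. The Myc transcript and most genes of ribosome assembly and cell division did not pass the test in either direction.

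Values are log2 expression after the authors' normalization, so a difference of 1 is a 2-fold change, and 3 arrays in a group set a limit to precision. The error of a difference is the standard error (SE) from limma, that of a level is the SD over 3 arrays, and a gene is called at a Benjamini-Hochberg adjusted p under 0.05. Probe sets for 18193 genes were present, and 13703 of these genes were bright enough to be tested. Arrays of a group correlated with r of at least 0.998 for M2+10058F4 and at least 0.997 for M2 across probe sets. The 3' minus 5' difference of beta-actin, a sign of RNA integrity, was 0.516, 0.468 and 0.482 with 10058F4, against 0.371, 0.359 and 0.416 in M2 cells. These arrays did not overlap, and the exact two-sided permutation p was 0.1, the smallest that 3 against 3 arrays allow. For Gapdh it was -0.272 ± 0.00988 with 10058F4 and -0.283 ± 0.0321 in M2 cells (SD, n = 3 each; exact permutation p = 0.6). The part of RNA integrity in the differences below was not tested. In these bulk samples, fewer cells of a type and less RNA per cell cannot be told apart.

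To show what the E-box looks like in genes the results turn on, stretches of 6 promoters follow, chosen after their values were seen: 4 genes that rose with 10058F4 (Fkbp5, Dusp1, Per1 and Cry1) and 2 known MYC targets that were not called (Nop2 and Ldha). The stretches are from RefSeq on build GRCm38.p6, written 5' to 3' on the gene's strand, with the E-box CACGTG in capitals.
Fkbp5 (chr17:28486256-28486375, minus strand): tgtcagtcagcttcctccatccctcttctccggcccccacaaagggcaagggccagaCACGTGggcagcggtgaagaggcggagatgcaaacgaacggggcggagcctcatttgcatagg
Dusp1 (chr17:26508536-26508655, minus strand): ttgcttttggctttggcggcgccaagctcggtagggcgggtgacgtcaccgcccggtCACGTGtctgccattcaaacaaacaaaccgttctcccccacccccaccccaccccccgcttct
Per1 (chr11:69098726-69098845, plus strand): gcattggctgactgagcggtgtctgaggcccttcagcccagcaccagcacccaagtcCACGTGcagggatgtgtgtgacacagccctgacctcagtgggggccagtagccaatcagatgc
Cry1 (chr10:85185055-85185174, minus strand): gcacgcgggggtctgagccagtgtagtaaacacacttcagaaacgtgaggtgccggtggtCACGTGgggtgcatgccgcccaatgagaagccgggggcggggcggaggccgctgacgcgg
Nop2 (chr6:125131763-125131882, plus strand): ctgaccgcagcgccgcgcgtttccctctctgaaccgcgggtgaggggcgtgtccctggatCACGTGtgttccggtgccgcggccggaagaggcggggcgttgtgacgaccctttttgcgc
Ldha (chr7:46845650-46845769, plus strand): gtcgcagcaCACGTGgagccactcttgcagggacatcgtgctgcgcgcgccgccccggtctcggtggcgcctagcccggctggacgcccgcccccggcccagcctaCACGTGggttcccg

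The E-box began 169 bases before the annotated start in Fkbp5, 126 in Dusp1, 166 in Per1 and 60 in both Cry1 and Nop2, and Ldha held 2 within the stretch. CACGTG reads the same on both strands. Over windows from 250 bases before to 50 after the start, 1079 of 11008 promoters of tested genes held it (9.80%), as did 155 of 1191 promoters of raised genes (13%) and 114 of 1128 of lowered genes (10.1%). Among the gene lists used below the share ran from 0% to 44.4%, the highest being that of dendritic cell markers with 4 of 9 windows. It was 4 of 10 in translation genes (40%), 8 of 23 in lysosome genes (34.8%), 4 of 12 in the MYC network (33.3%), 5 of 16 in clock genes (31.2%) and 4 of 16 in glucocorticoid-type genes (25%). In ribosome assembly 7 of 32 windows held it (21.9%), and in MYC-linked nucleotide synthesis 3 of 24 (12.5%). A match describes the letters in a window and not a site that MYC used.

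Many genes moved, mostly by small amounts and about equally up and down. With 10058F4 against M2, 2858 of 13703 genes were called (20.9%), 1456 raised (10.6% of those tested) and 1402 lowered (10.2%). Of the raised genes 936 changed by less than 0.5 on the log2 scale, as did 938 of the lowered genes. At least 2-fold changes were found for 122 raised genes (0.89%) and 108 lowered genes (0.788%). The median difference over tested genes was 0.00. For comparison, nutlin-3a against the same M2 arrays called 2112 genes (15.4%), 1310 raised (9.56%) and 802 lowered (5.85%). The counts of gene lists below are to be read beside these shares of all tested genes. A count near its share says nothing particular about the list.

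**Figure D1:**
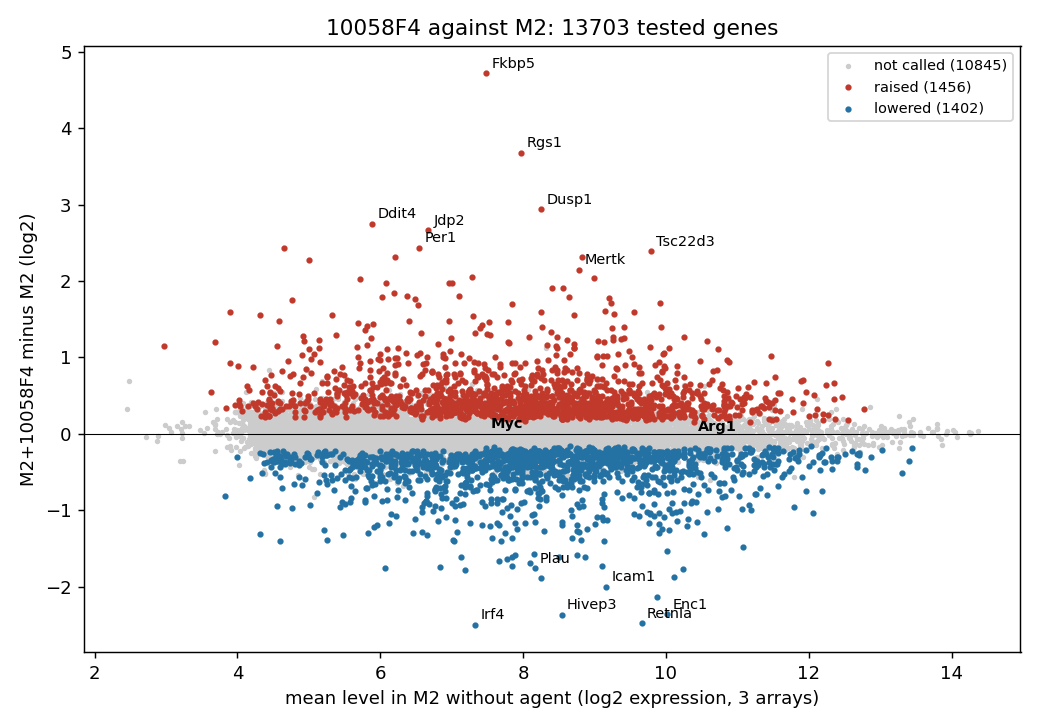
Log2 difference, M2+10058F4 minus M2 (vertical axis), against mean log2 level in M2 cells (horizontal axis), 1 point per tested gene, each mean over 3 arrays. The 1456 raised genes are red, the 1402 lowered genes blue and the others grey; Fkbp5 stands highest at 4.72 and Irf4 lowest at -2.50.

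Fkbp5, a co-chaperone that dampens the glucocorticoid receptor, had the highest rise of any tested gene. It read 12.26, 12.13 and 12.19 with 10058F4, against 7.51, 7.30 and 7.62 in M2 cells. The groups stood far apart, with a log2 difference of 4.72 (SE 0.15, adjusted p = 1.4e-10). Rgs1, which shortens signals of chemokine and other G protein-coupled receptors, read 11.78, 11.55 and 11.61 with 10058F4, against 7.89, 8.0 and 8.03 in M2 cells. All of its 10058F4 arrays were higher than all of its M2 arrays, by 12.8-fold (adjusted p = 4.6e-09). Ddit4 (REDD1), a stress-induced inhibitor of mTORC1, read 8.82, 8.43 and 8.67 with 10058F4, against 5.49, 6.04 and 6.13 in M2 cells, without overlap and 6.74-fold higher (adjusted p = 3.1e-08). Nutlin-3a raised Ddit4 too, 5.74-fold against the same M2 arrays (adjusted p = 1e-07).

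The next rises held receptors of the cell surface. Mertk, a receptor for engulfing apoptotic cells, read 10.94, 10.88 and 10.96 with 10058F4, against 8.86, 8.71 and 8.78 in M2 cells, where it was also below the M0 mean of 10.21. The rise was 4.42-fold (adjusted p = 2.1e-09). The prostaglandin E2 receptor gene Ptger2 rose 4.96-fold, the Notch ligand gene Jag1 4.87-fold, the checkpoint receptor gene Havcr2 (TIM-3) 4.17-fold, the cytokine receptor gene Lifr 4.10-fold and the inhibitory receptor gene Cd300lf 3.95-fold. Arg2, the mitochondrial arginase, rose 3.91-fold, and Sla, an adaptor that dampens antigen receptor signals, rose 3.77-fold. Slc39a12, a zinc transporter gene, rose 5.39-fold, Abhd15 4.95-fold, Fam107b 4.12-fold and Rab15 3.92-fold. For some of these genes the probe sets disagreed. Jdp2, an AP-1 repressor, had log2 differences of 2.67 and 0.03, Lifr of 2.03, 0.26 and 0.23, of which only the first was called, and Jag1 of 2.28, 1.43 and -0.05, of which the last was not called. Of 200 called genes named by the rule, 102 had other tested probe sets. For 59 of these all the others were called the same way, for 18 some and for 25 none.

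Among the falls, Irf4, a transcription factor that IL-4 induces and that drives M2 genes, was the farthest. It read 4.88, 4.75 and 4.85 with 10058F4, against 7.44, 7.18 and 7.37 in M2 cells, so all 3 treated arrays were lower than every M2 array, by 5.67-fold (log2 difference -2.50, SE 0.09, adjusted p = 6.3e-10). Hivep3, a zinc-finger protein that binds kappa-B-like sites, read 6.22, 6.24 and 6.06 with 10058F4, against 8.42, 8.65 and 8.54 in M2 cells, and was 5.15-fold lower without overlap. That fall rests on 1 of 5 Hivep3 probe sets (-2.37), since the others stood at -0.46, which was called, and at -0.11, 0.15 and 0.22, which were not. Icam1, an adhesion molecule and NF-kappa-B target, read 7.08, 7.26 and 7.15 with 10058F4, against 9.08, 9.29 and 9.12 in M2 cells. It was 3.99-fold lower (adjusted p = 6.3e-10).

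The other large falls are given here by fold. Tlr1, which pairs with TLR2 to sense bacterial lipopeptides, was 3.70-fold lower, and the potassium channel gene Kcnn4 3.66-fold. The thrombin receptor gene F2r was 3.43-fold lower, the sphingosine 1-phosphate receptor gene S1pr1 3.18-fold and the VEGF receptor gene Flt1 3.24-fold. Rgs2, of the same family as Rgs1, was 3.42-fold lower, while Rgs1 rose. Plau, the urokinase plasminogen activator, was 3.38-fold lower, and Pdgfa, a growth factor for mesenchymal cells, 3.31-fold. Enc1 (5.15-fold), Pald1 (4.41-fold), Prr5l (3.37-fold), Neurl3 (3.11-fold), the ETS factor gene Etv5 (3.08-fold) and the RNase gene Zc3h12d (3.07-fold) completed the rule for named falls together with Retnla, Cxcl10 and Nfkbie, described below.

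**Figure D2:**
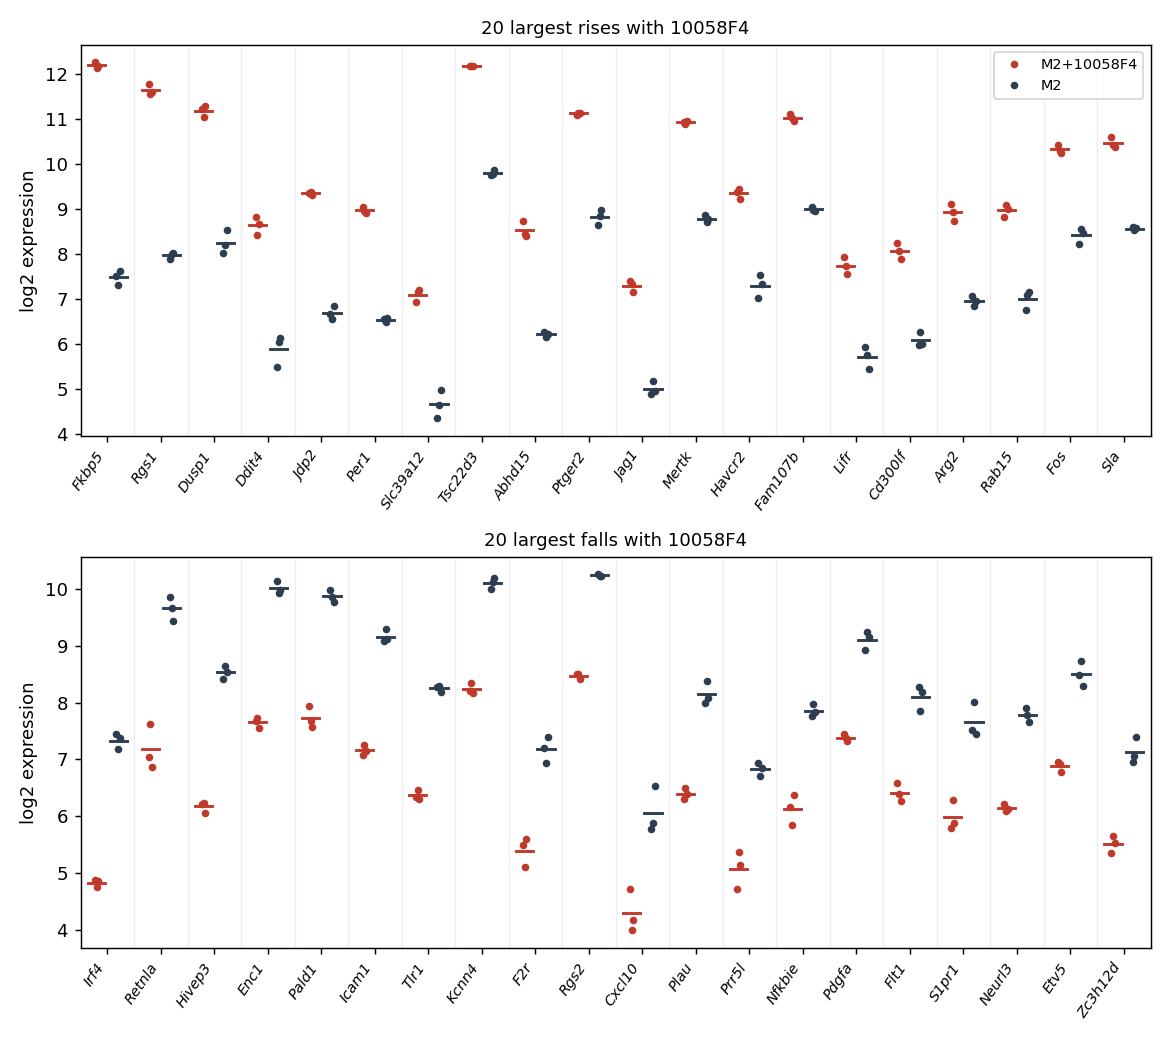
Log2 expression on each array for the 20 genes with the largest called rise and the 20 with the largest called fall, 3 M2+10058F4 and 3 M2 arrays per gene. The 40 genes were picked only among called genes whose arrays do not overlap between the groups, so the lack of overlap here follows from the rule. Of all tested genes 44.2% had no overlap.

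Myc itself was not called. It read 7.41, 7.45 and 7.57 with 10058F4, against 7.50, 7.31 and 7.61 in M2 cells, with overlapping arrays, a log2 difference of 0.00 and a 95% interval of -0.32 to 0.33. Its partner Max read 8.72, 8.84 and 8.72 with 10058F4, against 8.91, 8.86 and 8.95 in M2 cells, and was not called (log2 difference -0.15, adjusted p = 0.35). Of 13 tested genes of the MYC and MAX network 2 rose and 2 fell, but with any 1 of the 6 arrays left out 1 rose, and without replicate 1 or 3 of M2+10058F4 or replicate 2 or 3 of M2 1 fell. Mlxip (MondoA), a glucose-sensing relative of MYC, rose by 0.57 (adjusted p = 9.1e-05), and the MAX-binding repressor gene Mxd4 fell by 0.53 (adjusted p = 2.4e-05), though not when only probe sets specific by suffix were used (-0.35, adjusted p = 0.386).

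Genes of ribosome assembly, the classic MYC programme, had a median difference of 0.00, the same as over all genes. Of 39 tested, 6 rose and 4 fell, where 10.6% of all genes rose and 10.2% fell. Npm1, the nucleolar chaperone nucleophosmin, read 11.79, 11.76 and 11.81 with 10058F4, against 11.41, 11.49 and 11.42 in M2 cells. Those arrays did not overlap, and the gene rose by 0.35 (adjusted p = 0.00074; 0.16 and not called with its other probe set), as did the nucleolar gene Gnl3 by 0.40 and the RNA polymerase I and III subunit gene Polr1c by 0.33. The counts depended on single arrays. Falls numbered 0 without M2+10058F4 replicate 1 or M2 replicate 3, 1 without M2+10058F4 replicate 3 and 2 without each of the other 3 arrays, and rises numbered 3 without M2+10058F4 replicate 1, M2 replicate 1 or M2 replicate 2. Nop2, an rRNA methyltransferase whose E-box is printed above, read 7.28, 7.29 and 7.37 with 10058F4, against 7.28, 7.44 and 7.22 in M2 cells, with overlap and a difference of 0.00 (95% interval -0.15 to 0.15).

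Few translation and ribosomal protein genes were called. Of 17 tested translation and tRNA genes 2 rose (1 without M2+10058F4 replicate 2 or M2 replicate 1) and 2 fell. Of 24 cytosolic ribosomal protein genes 0 rose by limma, also at an unadjusted p under 0.05, and 1 fell, or 0 without M2+10058F4 replicate 1 or M2 replicate 2 or 3. The translation factor gene Eif5a fell by 0.28 (adjusted p = 0.0085) and the tRNA methyltransferase gene Trmt61a fell by 0.42 (adjusted p = 0.0033).

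MYC-linked genes of nucleotide, one-carbon and polyamine synthesis gave 4 of 28 higher and 3 lower, with a median of -0.13, where 10.6% of all genes were higher and 10.2% lower. Odc1, the rate-limiting enzyme of polyamine synthesis and a textbook MYC target, read 9.93, 10.06 and 10.15 with 10058F4, against 8.93, 9.05 and 9.11 in M2 cells. It was higher on every treated array, with a log2 difference of 1.02 (SE 0.08, adjusted p = 7.7e-07). The mitochondrial folate enzyme gene Mthfd2 rose by 0.93 and the ribose-phosphate kinase gene Prps1 by 0.61. Hk2, the inducible hexokinase, read 8.36, 8.33 and 8.34 with 10058F4, against 9.11, 9.13 and 9.17 in M2 cells. It fell by 0.79 (adjusted p = 0.00098), and the purine enzyme gene Atic fell by 0.50. The members lowered in this list numbered 7 with the replicate number as a block. Ldha, with its E-boxes printed above, read 11.55, 11.72 and 11.76 with 10058F4, against 11.65, 11.66 and 11.67 in M2 cells, and was not called (difference 0.02, adjusted p = 0.94).

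Genes that MYC is known to hold down moved both ways, 4 of 13 higher and 3 lower. Cdkn1b (p27), a CDK inhibitor, read 9.50, 9.43 and 9.55 with 10058F4, against 8.76, 8.77 and 8.52 in M2 cells, and rose by 0.81 (adjusted p = 0.0006). Its other probe set, at 0.15 (adjusted p = 0.54), was not called. Cdkn1a (p21), the CDK inhibitor that p53 induces, read 9.94, 10.11 and 9.95 with 10058F4, against 10.81, 10.67 and 10.76 in M2 cells. It moved the other way, with no overlap and a fall by 0.75 (adjusted p = 2.2e-06). Gadd45a rose by 1.13 while its relative Gadd45b fell by 0.98, both growth arrest genes.

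**Figure D3:**
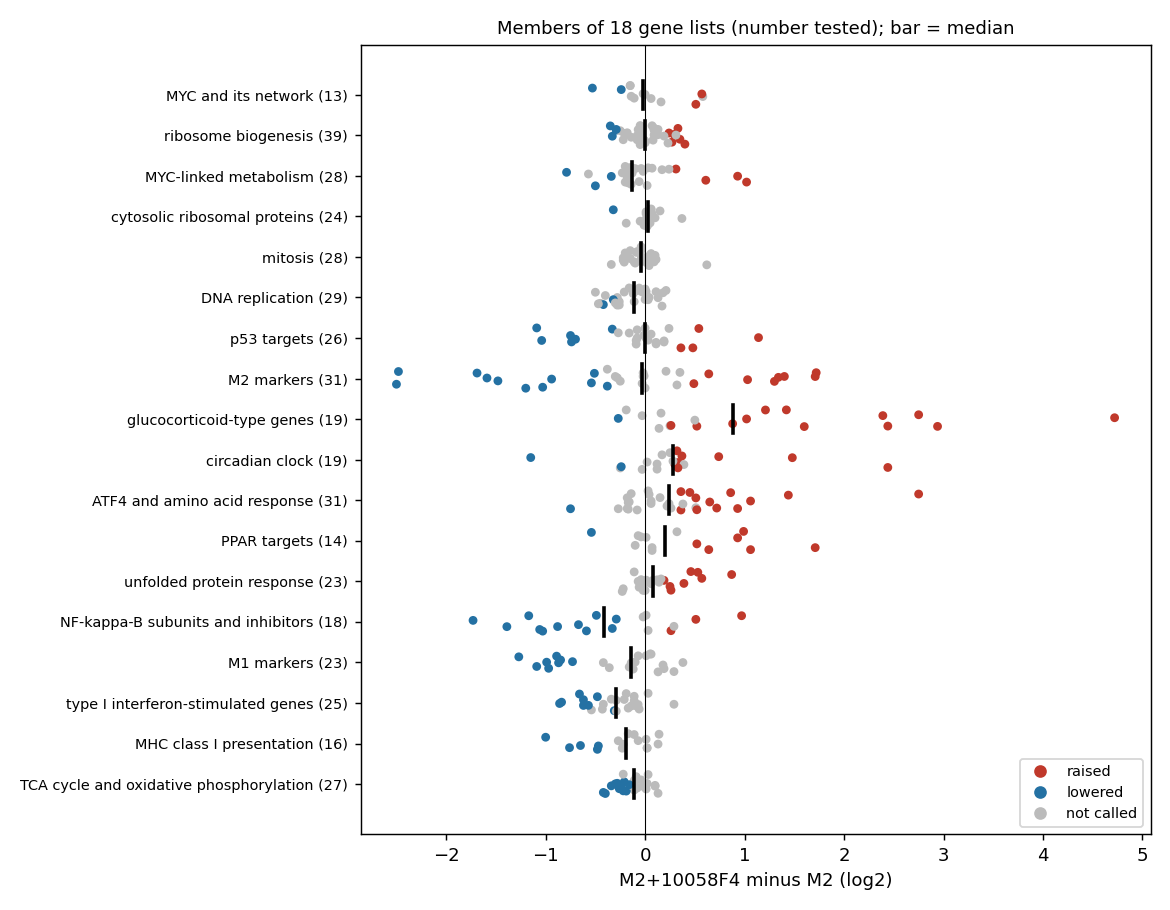
Log2 differences, M2+10058F4 minus M2, of the tested members of 18 gene lists, 1 point per gene, with a bar at the median of each list. The glucocorticoid-type genes have the highest median of these lists at 0.88 and the NF-kappa-B genes the lowest at -0.41, while ribosome biogenesis lies at 0.00.

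Most glucocorticoid-type genes were called higher, in a list drawn up with earlier results of these data known. Of 19 tested, 12 rose, 1 fell and 6 were not called, and the median difference was 0.88 against 0.00 over all genes. Dusp1, the phosphatase that switches off p38 and JNK, read 11.22, 11.04 and 11.30 with 10058F4, against 8.03, 8.19 and 8.52 in M2 cells. Its groups were far apart, 7.67-fold (adjusted p = 2.1e-09). Per1, a clock repressor, read 9.05, 8.96 and 8.92 with 10058F4, against 6.55, 6.49 and 6.57 in M2 cells, and rose 5.42-fold (adjusted p = 2.5e-09). Tsc22d3 (GILZ), an inhibitor of NF-kappa-B and AP-1, read 12.17, 12.19 and 12.18 with 10058F4, against 9.75, 9.77 and 9.86 in M2 cells. The treated arrays were nearly identical and the rise was 5.23-fold (adjusted p = 1.4e-06).

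Further members rose less. Cd163, the haemoglobin scavenger receptor, read 5.55, 5.65 and 5.28 with 10058F4, against 3.87, 3.79 and 4.02 in M2 cells. The M2 arrays lay under the filter's percentile (4.41 to 4.44 on M2 arrays), so its 3.03-fold rise is not an exact size. Klf9 and Sgk1, a transcription factor and a kinase that glucocorticoids induce, were picked after their values were seen and rose by 1.21 and 1.02 on the log2 scale. Nr3c1, the glucocorticoid receptor gene itself, also picked this way, was the 1 member that fell, by 0.27 (adjusted p = 0.038), and with any 1 of the 6 arrays left out it was not called (adjusted p = 0.0548 to 0.154). No glucocorticoid is named among the agents in the labels. Nutlin-3a, set against the same M2 arrays, raised 8 of the 19 and lowered 0, with a median of 0.45. Compared directly, 7 of the 19 were higher with 10058F4 than with nutlin-3a and 0 lower, where 6.96% of all genes were called in either direction. Fkbp5 averaged 10.10 with nutlin-3a, 2.09 below its 10058F4 mean (adjusted p = 4.9e-07).

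Clock genes, which share Per1 with that list, also rose more often than they fell. Of 19 tested, 8 rose and 2 fell, with a median of 0.28, and 5 rose with the mean of all probe sets. Nutlin-3a, against the same M2 arrays, raised 7 of the 19 and lowered 0. Cry1, a core clock repressor, read 8.49, 8.31 and 8.52 with 10058F4, against 6.84, 7.03 and 7.01 in M2 cells, without overlap, and rose by 1.48 (adjusted p = 8.2e-07). With nutlin-3a it rose by 1.56 (adjusted p = 1.1e-06). The nuclear receptor gene Rora rose by 0.74 and the repressor gene Ciart by 0.37. Bhlhe40, an E-box-binding repressor, fell by 1.15 (adjusted p = 0.00044).

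Immediate early genes and genes of ERK feedback were split, 8 of 28 higher and 6 lower. Fos, an AP-1 subunit, read 10.43, 10.30 and 10.24 with 10058F4, against 8.23, 8.55 and 8.47 in M2 cells, and rose 3.75-fold (adjusted p = 2.8e-06). Its mean with nutlin-3a was 8.38, near the M2 arrays. Dusp6, the phosphatase that reverses ERK activation, rose by 1.46. Egr2, an early factor that IL-4 also induces in macrophages, read 9.65, 9.58 and 9.56 with 10058F4, against 11.16, 11.04 and 11.04 in M2 cells, with no overlap and a fall by 1.48 (adjusted p = 2.6e-07).

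NF-kappa-B subunits and inhibitors fell more often than they rose, 11 of 18 against 3, with a median of -0.41. With only probe sets specific by suffix, 7 fell. Nfkbie, an inhibitor that NF-kappa-B itself induces, read 6.16, 5.85 and 6.38 with 10058F4, against 7.77, 7.97 and 7.83 in M2 cells, and fell 3.31-fold (adjusted p = 1.4e-07). Relb, the subunit of the non-canonical pathway, read 6.67, 6.70 and 6.64 with 10058F4, against 7.68, 7.75 and 7.67 in M2 cells. The groups were clearly apart and the gene fell by 1.03 (adjusted p = 3.5e-08). The nuclear cofactor genes Bcl3 and Nfkbiz fell by 1.39 and 1.17, and the kinase gene Ikbke fell by 1.06.

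Subunits picked after their values were seen also fell, Nfkb2 by 0.67, Rel by 0.59 and Rela by 0.29. The risers included Ikbkg (NEMO), the scaffold of the IKK complex, by 0.97, and Nfkbia, the main inhibitor, which glucocorticoids also induce, by 0.26 (adjusted p = 0.0023). Birc3 rose by 0.51 with its brightest probe set but stood at -0.06 (adjusted p = 0.762) with a specific probe set. Nutlin-3a against the same M2 arrays lowered 6 of the 18 and raised 2, with a median of -0.19, and directly 7 were lower and 2 higher with 10058F4 than with nutlin-3a.

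**Figure D4:**
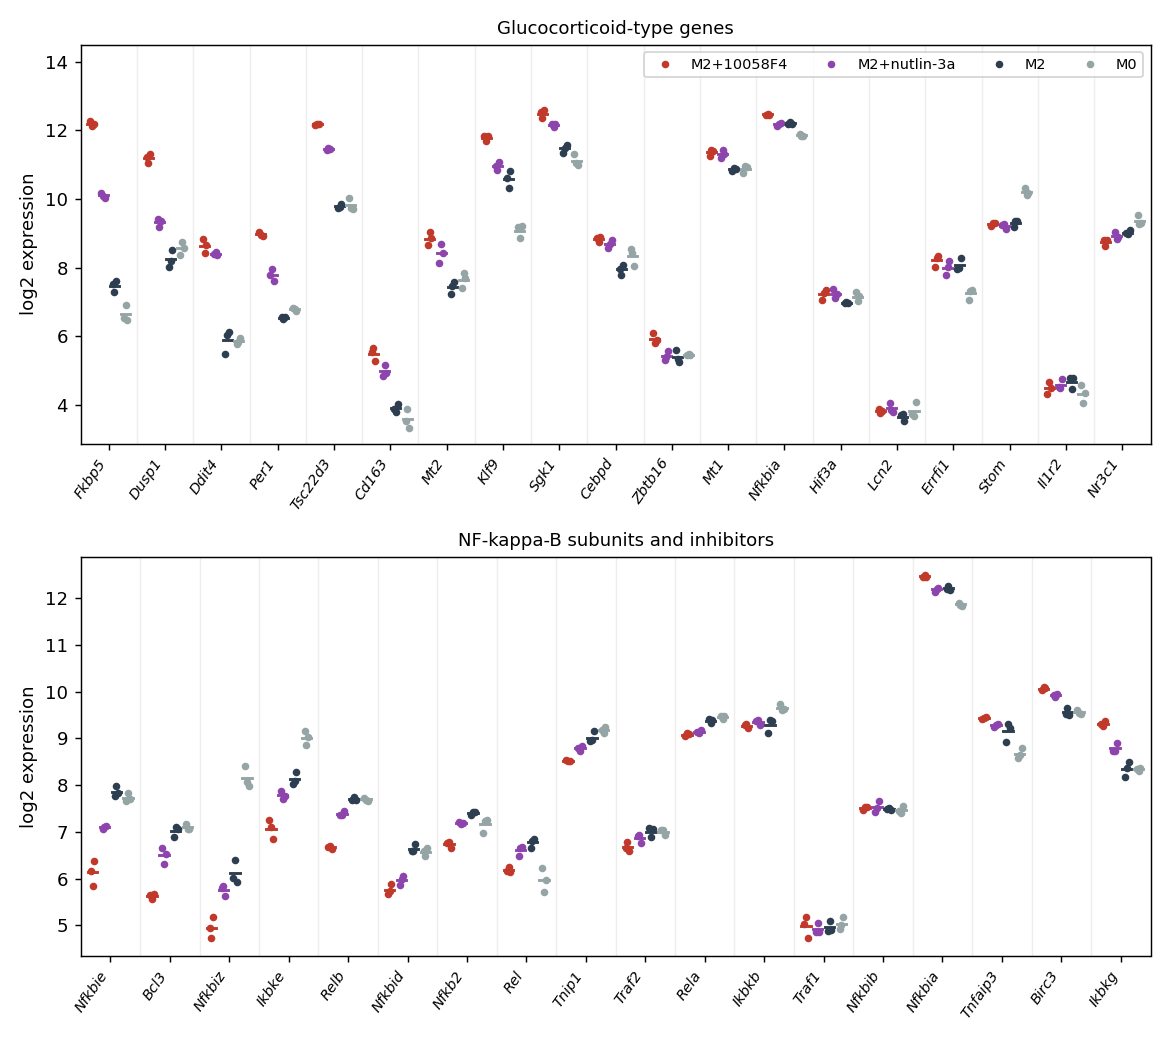
Log2 expression on each array of the 19 glucocorticoid-type genes (top) and the 18 NF-kappa-B genes (bottom) in M2+10058F4, M2+nutlin-3a, M2 and M0 cells; bars are means of 3 arrays. In Fkbp5, Dusp1, Per1 and Tsc22d3 the nutlin-3a arrays lie between the 10058F4 and the M2 arrays.

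Inflammatory (M1) markers fell where they changed, 8 of 23 lower and 0 higher, with a median of -0.14. Cd40, a costimulatory receptor, read 7.56, 7.47 and 7.42 with 10058F4, against 8.86, 8.78 and 8.64 in M2 cells, and was 2.42-fold lower (adjusted p = 1.3e-07). Its 10058F4 arrays were close to the M0 mean of 7.25. Irf5 and Irf1, transcription factors of inflammatory activation, fell by 1.09 and 0.99, though the other probe set of Irf5 was not called (-0.16). The anti-inflammatory cytokine gene Il10, counted here since LPS induces it, fell by 0.89. Ptgs2 (COX-2) fell by 0.97 to values below the filter's percentile, so that its size is not exact. The other Ptgs2 probe set, at -0.07 (adjusted p = 0.87), was not called.

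Chemokine genes gave 2 higher and 4 lower of 19, where 10.6% of all genes were higher and 10.2% lower. Cxcl10, an interferon-induced chemokine, read 4.72, 3.99 and 4.18 with 10058F4, against 5.77, 5.88 and 6.54 in M2 cells. The groups did not overlap, but 2 of the treated arrays lay under the filter's percentile, so the 3.40-fold fall is not exact. With nutlin-3a Cxcl10 fell by 1.44 against the same M2 arrays (adjusted p = 0.0005). Ccl4 fell by 1.19 and Ccl8 by 0.74, while Ccl9 rose by 0.66. Of 25 type I interferon-stimulated genes 8 fell and 0 rose, with a median of -0.29. The count was 4 without M2+10058F4 replicate 2 or M2 replicate 3 and 5 without M2+10058F4 replicate 3. Nutlin-3a, against the same M2 arrays, lowered 9 of the 25 and raised 0, with a median of -0.34. Zbp1, a sensor of nucleic acids, fell by 0.86, the antiviral GTPase gene Mx1 by 0.84 and the RIG-I-like receptor gene Dhx58 by 0.62.

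Antigen presentation genes fell where called. In MHC class II presentation 4 of 11 fell and 0 rose. H2-DMa, which loads peptide onto class II molecules, read 8.74, 8.55 and 8.83 with 10058F4, against 10.02, 9.76 and 10.07 in M2 cells, and fell by 1.25 (adjusted p = 8.8e-06), with its other probe set at -0.37 and not called. In MHC class I presentation 5 of 16 fell and 0 rose, or 3 with only probe sets specific by suffix. Psmb10, a catalytic subunit of the immunoproteasome, read 10.27, 10.15 and 10.12 with 10058F4, against 11.23, 11.08 and 11.25 in M2 cells. It fell 2.01-fold with no overlap (adjusted p = 2.4e-07). The other inducible subunits fell less, Psmb9 by 0.76 and Psmb8 by 0.65 (-0.22 and not called with its other probe set). The peptide transporter gene Tap2 fell by 0.47.

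The summed linear level of dendritic cell markers was also lower, 1052 to 1250 on 10058F4 arrays and 1652 to 2115 on M2 arrays, with 8 of 10 above the filter's percentile in each group. The gap lay in Batf3 and Itgax (CD11c). Without them, picked after their values were seen, the sums overlapped, at 356.3 to 366.3 with 10058F4 and 339.3 to 380 in M2 cells. Over the 10 markers the median log2 difference was -0.03. Of these, 0 rose and 1 fell. Batf3, a factor of cross-presenting dendritic cells, read 8.57, 8.50 and 8.70 with 10058F4, against 9.95, 9.68 and 10.06 in M2 cells (log2 difference -1.30, adjusted p = 1.5e-06). Its M0 mean was 6.99, so it was 2.90 higher in M2 than in M0 cells (adjusted p = 2.7e-10). Nutlin-3a lowered Batf3 too, by 1.01 against the same M2 arrays (adjusted p = 3.5e-05). Itgax was not called (-0.48, adjusted p = 0.076) but was with the replicate block (adjusted p = 0.00217). The part of dendritic-type cells in the fall of antigen presentation genes was not tested.

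Costimulatory and checkpoint genes numbered 3 higher and 7 lower of 19. Beside the rise of Havcr2 given above, Cd83 fell by 0.52, the checkpoint gene Vsir (VISTA) by 0.53 and Nectin2 by 0.62. Cytokine and growth factor genes fell in 7 of 28 cases and rose in 3, or 1 without M2+10058F4 replicate 2. Il15, which sustains NK and memory T cells, read 6.64, 6.70 and 6.64 with 10058F4, against 7.83, 7.85 and 8.04 in M2 cells, and fell by 1.25 (adjusted p = 8.6e-08). Pdgfb fell by 1.14.

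M2 markers moved both ways, 8 of 31 higher and 11 lower, with a median of -0.03. Retnla (RELM-alpha) read 7.05, 7.62 and 6.86 with 10058F4, against 9.87, 9.67 and 9.44 in M2 cells, and fell 5.59-fold (adjusted p = 3.5e-07), while its M0 mean was 4.45. Socs2, a STAT-induced brake on cytokine signals, read 10.96, 11.02 and 10.86 with 10058F4, against 9.32, 9.14 and 9.24 in M2 cells. It was clearly higher with the agent, by 1.72 (adjusted p = 4.5e-07). Fabp4, a fatty acid-binding protein and PPAR-gamma target, read 11.51, 11.70 and 11.68 with 10058F4, against 9.69, 9.96 and 10.10 in M2 cells, and rose by 1.71 (adjusted p = 2.6e-05).

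The M2 genes that follow were picked after their values were seen. Arg1, the arginase that defines M2 macrophages, read 9.81, 10.72 and 10.50 with 10058F4, against 9.93, 10.66 and 10.53 in M2 cells. The arrays overlapped, with SDs of 0.474 with 10058F4 and 0.387 in M2 cells, and same-numbered arrays read close to each other. The difference of -0.03 had a 95% interval of -1.44 to 1.38 (SE 0.66). That interval leaves the pairing out and takes its spread from all 15 arrays, those of M1 cells among them, so its width is not that of these groups alone. Chil3 (Ym1) rose by 1.40, the transcription factor gene Klf4 by 1.34, the lectin gene Clec10a by 1.30 and the chemokine gene Ccl17 by 1.03. In the other direction the kinase gene Matk fell by 1.59, Mgl2 by 1.2, the cadherin gene Cdh1 by 1.03 and the chemokine gene Ccl24 by 0.94. The neighbouring lectin genes Clec10a and Mgl2, whose products both bind galactose-type sugars, thus went opposite ways. Mrc1 (CD206) was not called over 15 arrays (0.35, adjusted p = 0.4) but was with the 6 compared arrays alone (adjusted p = 0.00606).

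Against M0 cells, 24 of the 31 M2 markers were higher with 10058F4 and 1 was lower, with a median difference of 1.16, where 33.0% of all genes were called, 14.0% higher and 19.1% lower. For M2 against the same M0 arrays 23 were higher and 2 lower, with a median of 1.80, where 31.0% of all genes were called, 12.7% higher and 18.4% lower. In IL-4 and IL-13 signalling 3 of 18 rose and 4 fell with 10058F4 against M2, or 2 without replicate 1 or 3 of either group. The receptor gene Il4ra rose by 0.40 and the adaptor gene Irs2 by 0.77. Ptpn6 (SHP-1), a phosphatase that limits cytokine signals, read 8.52, 8.58 and 8.34 with 10058F4, against 10.09, 10.09 and 9.89 in M2 cells, and fell by 1.54 (adjusted p = 5.9e-08). Stat5a fell by 0.50.

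**Figure D5:**
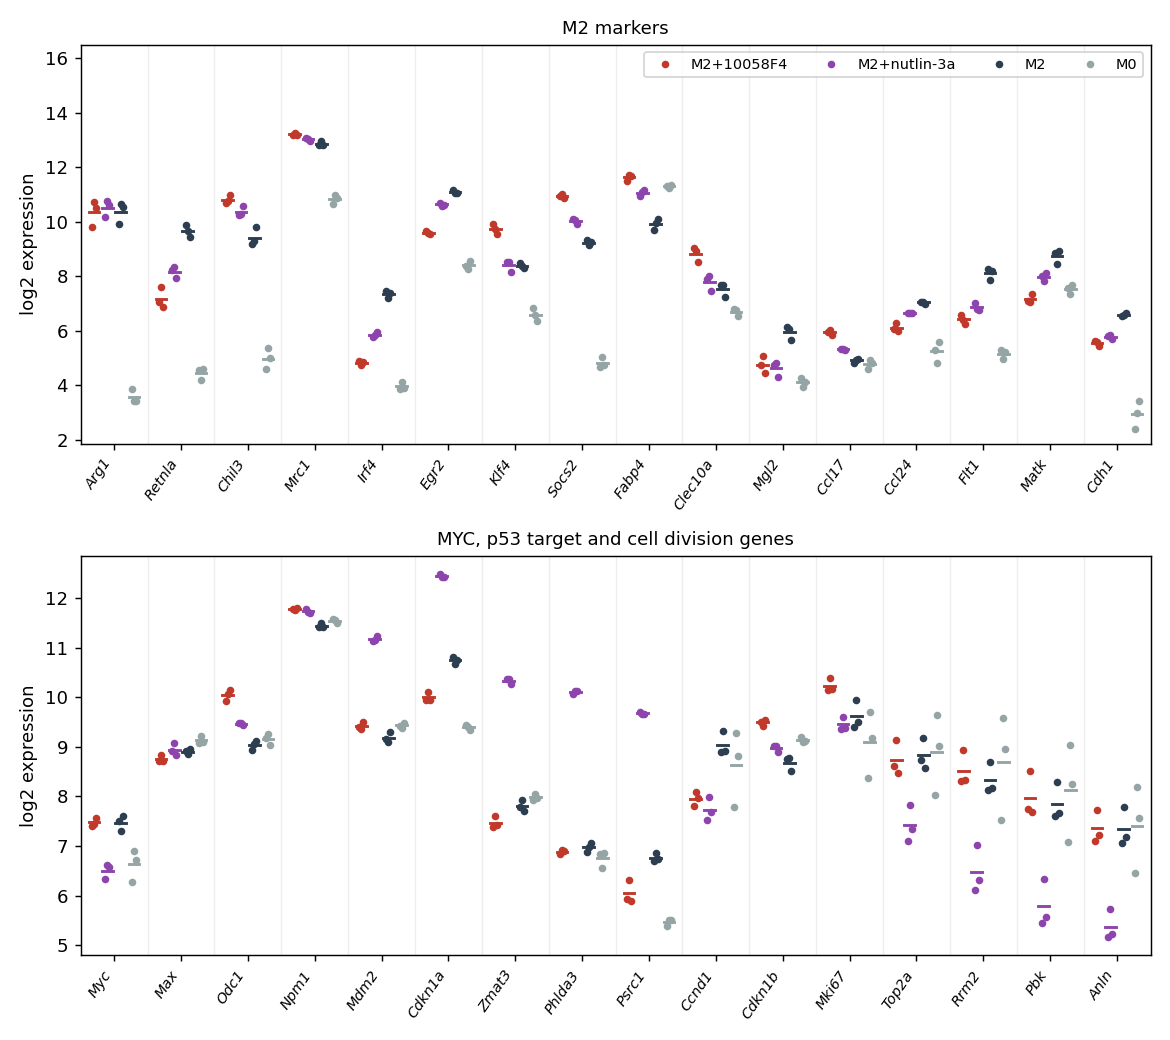
Log2 expression on each array of 16 M2 markers (top) and 16 MYC, p53 target and cell division genes (bottom) in M2+10058F4, M2+nutlin-3a, M2 and M0 cells; bars are means of 3 arrays. Irf4 and Retnla are lower with 10058F4 than in M2 cells, Arg1 overlaps, and Cdkn1a and Psrc1 are high with nutlin-3a but not with 10058F4.

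Genes of amino acid and ER stress were more often called higher than lower, though most were not called. Of 31 genes of ATF4 and the amino acid response 12 rose and 1 fell, with a median of 0.24. Slc7a11, the cystine importer, read 7.73, 6.74 and 7.52 with 10058F4, against 5.92, 5.81 and 5.96 in M2 cells, with replicate 2 nearest to the M2 arrays and a rise by 1.44 (adjusted p = 0.00031). The asparagine synthetase gene Asns rose by 1.06. Nutlin-3a, against the same M2 arrays, raised 17 of the 31 and lowered 1, with a median of 0.40. Of 23 genes of the unfolded protein response 8 rose, or 5 without M2+10058F4 replicate 2, and 0 fell, with a median of 0.08. Dnajb9 (ERdj4), an ER chaperone, read 10.50, 10.47 and 10.48 with 10058F4, against 9.68, 9.60 and 9.57 in M2 cells, and rose by 0.87 (adjusted p = 4.5e-07), and Edem1, which sorts misfolded proteins for degradation, rose by 0.57.

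Oxidative stress genes were mixed. Of 23 genes of NRF2 and glutathione 4 rose, or 9 with the 6 compared arrays alone, and 2 fell. Gsr, the glutathione reductase, read 8.97, 8.99 and 9.01 with 10058F4, against 7.72, 7.88 and 7.82 in M2 cells, and rose 2.28-fold (adjusted p = 4.1e-08). Hmox1, which degrades haem, rose by 0.80 and the catalase gene Cat by 0.60, while Osgin1 fell by 0.64. The NRF2 gene Nfe2l2 itself fell by 0.41 (-0.27 and not called with its other probe set). In the aryl hydrocarbon receptor list 3 of 8 rose and 2 fell. Ahrr, the repressor of that receptor, fell by 1.36 (adjusted p = 1.5e-06), and the receptor's target gene Tiparp and partner gene Arnt rose by 0.42 and 0.41. Of 16 heat shock genes 0 rose and 1 fell, the co-chaperone gene Bag3 by 0.40.

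Lipid genes under PPAR control rose in 6 of 14 cases and fell in 1, with a median of 0.20. Plin2, which coats lipid droplets, read 13.09, 13.25 and 13.25 with 10058F4, against 12.15, 12.23 and 12.42 in M2 cells, and rose by 0.93 (adjusted p = 2.1e-05). Angptl4, an inhibitor of lipoprotein lipase, rose by 0.99, and its nutlin-3a mean of 6.03 was below both groups. The fatty acid receptor gene Cd36 rose by 0.64. The elongase gene Elovl5 and the acyl-CoA synthetase gene Acsl3 rose by 0.64 and 0.79, while the lipoprotein lipase gene Lpl fell by 0.35 and the LXR-alpha gene Nr1h3 fell by 0.31.

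Cholesterol synthesis genes mostly read slightly lower with 10058F4 than in M2 cells, with few calls. Of 18 tested 1 rose and 4 fell, 17 lay below 0, and the median was -0.22. The count of lowered genes was 1 without M2+10058F4 replicate 1 or M2 replicate 2 and 2 without M2+10058F4 replicate 3. Hsd17b7, an enzyme of the pathway, fell by 0.41 (adjusted p = 0.0093), and Insig1, which holds back the pathway's activator SREBP, rose by 0.37 (adjusted p = 0.0079).

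Of 27 genes of the TCA cycle and oxidative phosphorylation 11 fell and 0 rose, all by small amounts, with a median of -0.11. Leaving out M2+10058F4 replicate 1 left 4 called, M2+10058F4 or M2 replicate 3 left 5, and M2 replicate 2 left 6, as did centring the arrays on their medians. Sdhb, a subunit of succinate dehydrogenase, read 11.10, 11.14 and 11.06 with 10058F4, against 11.46, 11.50 and 11.55 in M2 cells, and fell by 0.40 (adjusted p = 0.00014). Its partner Sdhc fell by 0.42 (-0.15 and not called with its other probe set) and the cytochrome gene Cyc1 by 0.30. Ppargc1b, a coactivator of mitochondrial genes that IL-4 induces, fell by 1.13 (adjusted p = 7.7e-07), although in fatty acid oxidation 3 of 22 rose and only this 1 fell. Of 27 glycolysis and hypoxia genes 6 rose and 3 fell, with Pfkfb4, which sets the level of a glycolytic activator, lower by 0.71.

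Cell division genes were mostly not called. By limma 0 of 28 mitosis genes passed the test with 10058F4 against M2, 1 was higher at an unadjusted p under 0.05, and the median was -0.04. Mki67 (Ki-67) read 10.14, 10.40 and 10.16 with 10058F4, against 9.40, 9.94 and 9.51 in M2 cells. It was higher on all treated arrays but not called (0.62, adjusted p = 0.09), and with the replicate block it was (adjusted p = 0.0184). Of 29 replication genes 0 rose and 2 fell, 0 without M2+10058F4 replicate 1 or M2 replicate 2 or 3, 1 without M2+10058F4 replicate 3 or M2 replicate 1, and 9 with the 6 compared arrays alone. Ccnd1 (cyclin D1), a MYC-linked driver of G1, read 7.81, 8.09 and 7.97 with 10058F4, against 8.89, 9.33 and 8.92 in M2 cells, a fall by 1.09 (adjusted p = 0.023). That call was lost without M2+10058F4 replicate 1 (adjusted p = 0.0797), M2+10058F4 replicate 3 (0.058) or M2 replicate 2 (0.0848). Nutlin-3a lowered Ccnd1 too, by 1.31 against the same M2 arrays (adjusted p = 0.012). The direct difference between the agents, 0.22, was not called (adjusted p = 0.78).

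The agents parted in cell division and p53 genes. Compared directly, 373 genes were higher (2.72%) and 581 lower (4.24%) with 10058F4 than with nutlin-3a, and 17 of 28 mitosis genes were among the higher, with a median of 1.09. Nutlin-3a lowered 22 of the 28 against the same M2 arrays, with a median of -1.08. Of 26 p53 targets 18 were lower with 10058F4 than with nutlin-3a, with a median of -1.09, while against M2 cells 10058F4 raised 4 and lowered 6 (median 0.00) and nutlin-3a raised 19 and lowered 2 (median 0.92). Cdkn1a differed by -2.45 between 10058F4 and nutlin-3a cells, and averaged 12.45 in the nutlin-3a cells. Mdm2, the p53 target that encodes p53's own inhibitor, read 9.40, 9.37 and 9.50 with 10058F4, against 9.15, 9.10 and 9.31 in M2 cells, and was not called (0.24, adjusted p = 0.081). It was called higher with array weights (adjusted p = 0.01), the compared arrays alone (adjusted p = 0.0445) and trended robust eBayes, and in none of the other alternatives run. It averaged 11.18 with nutlin-3a.

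The p53-linked genes Psrc1, Phlda3 and Zmat3 differed by -3.63, -3.22 and -2.87 on the log2 scale, 10058F4 minus nutlin-3a. Plau and Icam1, which fell with 10058F4 against M2, differed by -2.71 and -2.16 from nutlin-3a cells, where they averaged 9.11 and 9.33. Higher with 10058F4 were Sla by 2.19, Fos by 1.94 and the division genes Pbk, Rrm2, Anln and Aspm by 2.19, 2.04, 1.99 and 1.94. Myc was also higher than with nutlin-3a, by 0.97 (adjusted p = 0.0011), at a nutlin-3a mean of 6.51 against an M0 mean of 6.63. Against M2 cells, the p53 target Trp53inp1 rose with 10058F4 by 1.14 (0.15 and not called with its other probe set), while the p53-linked genes Plk2 and Sesn1 fell by 1.04 and 0.74. Of 3 other Sesn1 probe sets 2 were called the same way and 1, at 0.07, was not called.

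Macrophage identity genes kept their summed level, 106600 to 108300 on 10058F4 arrays and 105000 to 107300 on M2 arrays, while 4 of 19 rose and 3 fell. Spi1 (PU.1), the master factor of the lineage, read 8.99, 9.13 and 9.11 with 10058F4, against 9.89, 9.78 and 9.85 in M2 cells, and fell by 0.76 (adjusted p = 2.6e-06). Cebpa, its partner factor, fell by 0.74, and the macrophage factor gene Maf rose by 0.66. Among scavenger and engulfment genes 5 of 24 rose, Mertk, Cd163 and Cd36 above and Cd93 by 0.81 among them. The 1 that fell was Olr1 (LOX-1), by 1.39, to values under the filter's percentile.

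Lysosome genes rose in 7 of 28 cases and fell in 1, but only 2 rose without M2+10058F4 replicate 2 and 3 without M2 replicate 1. The alpha-galactosidase gene Gla rose by 0.50 and the cholesterol exporter gene Npc1 by 0.38, and Tfeb, the factor that drives lysosome genes, fell by 0.58. Uvrag, which acts in autophagosome maturation, read 10.66, 10.53 and 10.40 with 10058F4, against 9.32, 9.28 and 9.19 in M2 cells, and rose by 1.27 (adjusted p = 8.2e-08), 1 of 6 autophagy genes of 23 that rose, a count of 2 or 3 with any 1 array left out. The iron exporter gene Slc40a1 rose by 1.27, and the iron transporter gene Slc11a2 and reductase gene Steap3 fell by 0.39 and 0.40. Among matrix proteases and their partners 5 of 18 rose and 3 fell, with Mmp19 higher by 1.41, Mmp13 by 1.23 and Thbs1 by 1.01, and Mmp2 lower by 0.87. In the BCL2 family and apoptosis list 3 of 21 rose and 7 fell, the pro-apoptotic genes Bcl2l11 (BIM) by 0.57 and Bak1 by 0.45 and the inflammatory caspase gene Casp1 by 0.43 among the falls.

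Summed markers of B cells, neutrophils and mast cells and basophils were lower on every 10058F4 array than on every M2 array, as were those of dendritic cells given above, and those of the other cells listed here overlapped. B cell markers summed to 1949 to 2062 on 10058F4 arrays and 2995 to 3274 on M2 arrays, and 3 of 6 tested fell. Most of that level was Blnk, a signalling adaptor that macrophages also express, which fell by 0.71, and Cd79b, a chain of the B cell receptor, fell by 0.67 to values of 4.06 to 4.40 with 10058F4, under the filter's percentile, so that its size is not exact. Neutrophil markers summed to 1169 to 1216 with 10058F4 and 1430 to 1556 in M2 cells, with 1 of 10 lower, the G-CSF receptor gene Csf3r by 0.66. Most of that gap lay in Csf3r, whose log2 mean was 9.0 with 10058F4 and 9.66 in M2 cells. The median log2 difference over these 10 markers was -0.03. For T and NK cells the sums were 275.3 to 280.3 with 10058F4 and 267.3 to 280.8 in M2 cells. For mast cells and basophils they were 150.2 to 155.7 with 10058F4 and 158 to 172.6 in M2 cells. Of 8 mast cell and basophil markers 5 lay under the filter's percentile on all 3 arrays of each group, so that sum may be background. Sums of osteoclast, stromal and erythroid markers overlapped between the groups. The part of these cells in the other differences was not tested.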

How the data were processed

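Total RNA of 15 samples was read on 15 one-colour arrays from biotin-labelled cRNA, per the labels' protocols. The authors deposited log2 expression values per probe set. RMA is the tool given in the submitters' processing notes, its version is not given in the sources, and the log base was read from the values. RMA evens out the distributions of the arrays, and the array medians were close but not equal, from 4.923 (M0 replicate 2) to 5.023 (M1 replicate 1). A shift shared by most genes would therefore mostly not show.

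Of 45101 probe sets 64 were controls, 34945 named 1 gene, 932 several and 9160 none in the platform annotation. Of those naming 1 gene, 34741 probe sets had a gene ID found in RefSeq (GRCm38.p6). Each gene was read from its brightest probe set (mean over 15 arrays). Testing required values over the 40th percentile of an array for 3 or more arrays, which left out 4490 genes. limma (lmFit, eBayes) was fitted on 15 arrays as 5 means, with 10 residual and 3.86 prior degrees of freedom and Benjamini-Hochberg adjustment per comparison. Data were simulated for 10058F4 against M2 over 13703 genes, with 50 genes changed at each fold below and all others unchanged. Of these 50, 28% were recovered at 1.2-fold, 88% at 1.5-fold, 94% at 2-fold and 100% at 4-fold, and 11 of 166 calls were false. The share changed was far below the 20.9% called in the data, and noise was drawn independently for each array. Recovery in the data may therefore differ.

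The comparison with its members and the 41 programme and 8 marker lists (999 genes, 916 with a probe set, 865 tested) were chosen with earlier results of these data known. Named genes were Myc, Max, Mdm2 and Cdkn1a, the 20 largest called rises and 20 falls without overlap, up to 5 called members per list by size (or the 2 with the smallest p), and the 8 most higher and 8 most lower than with nutlin-3a; clone names were left out. Exceptions are marked in the text. Marker sums are linear.

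Replicate numbers recur in all groups. Deviations of same-numbered arrays from their group means correlated with r of 0.31 to 0.37 for 10058F4 and M2, 0.34 to 0.41 with nutlin-3a and 0.37 to 0.47 with M0, all over 0.1. The numbers were therefore taken to pair the samples, but only in the alternative with the replicate block. The main fit, which gave the errors, p-values and counts reported, left the pairing out. Promoter windows were found for 11008 tested genes (first RefSeq window), not for 2695, and searched on both strands for CACGTG, TGATGNAA, TGACNNNGC and TNGCGTG; in 79 windows matches of different motifs overlapped. The alternatives tried were median centring, repeated quantile normalization, no filter and a stricter one, probe sets specific by suffix, averaged probe sets, the compared arrays alone, trended robust eBayes, array weights, the replicate block and each array left out. R 4.3.3, limma 3.58.1, Python 3.11.15, pandas 2.3.3, scipy 1.17.1 and matplotlib 3.10.9 were used.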

Additional observations from a re-analysis of the deposited data

How the results depend on the processing

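Of 200 named genes called with 10058F4 against M2, 154 were called the same way in every alternative that measured them, and of 20 not called 14 were not called in any. Directions reversed for Birc3 with probe sets specific by suffix (-0.06) and for Eif2ak3 with the mean of all probe sets (-0.04). Raised and lowered genes numbered 2201 and 2110 with array weights, 1632 and 1611 with the replicate block, and 1483 and 1216 with centred arrays. Leaving out 1 array gave 1040 to 1221 raised and 985 to 1165 lowered genes, and 106 to 128 and 104 to 115 at 2-fold or more. Higher and lower than with nutlin-3a were 608 and 875 with the compared arrays alone, 772 and 1272 with array weights and 320 and 669 with centred arrays, and 213 to 258 and 339 to 464 with 1 array left out. Against M0, leaving out 1 array gave 1480 to 1643 higher and 2084 to 2430 lower. The cause of these moves was not tested. Under scaling, list medians changed sign for genes held down by MYC (0.01, and -0.02 with quantile normalization) and the BCL2 family (-0.01, and 0.01). Beyond the counts and calls named above, the replicate block ended the call of Becn1 (0.24, adjusted p = 0.0548) and gained that of Cd3d (-0.26, adjusted p = 0.0333); other named calls were as without it. With it, list counts that moved over 1.5 times were 1 raised mitosis gene, 1 raised interferon-stimulated gene, 5 raised fatty acid oxidation genes, and 2 lowered genes each for ATF4, lysosome, engulfment and dendritic cell lists. At an unadjusted p under 0.05, 0 M1 markers, TCA cycle, replication and heat shock genes were higher by limma, and 1 each of the interferon-stimulated, MHC class I and MHC class II genes; 1 unfolded protein response gene was lower. With 3 arrays per group, changes of 1.2-fold were mostly missed in a simulation where far fewer genes changed than were called here. Values under the filter's percentile may be background.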

Other observations

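Probe sets without a gene name also moved. Of 3710 tested, 154 were raised and 190 lowered with 10058F4 against M2 (9.27% called), 20 and 18 of them at least 2-fold, with log2 differences up to 3.51 and down to -2.75. Of 6217 genes with several tested probe sets, 45 had probe sets called in both directions.

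Beyond the E-box, 3 more motifs were counted in the promoter windows, written with N for any base. Among 257 genes with TGATGNAA, the ATF4-type element, 14.0% were raised and 9.73% lowered with 10058F4, against 10.7% and 10.3% of genes without it. Among 1616 genes with TGACNNNGC, the NRF2-type element, 12.6% were raised and 9.78% lowered. Among 872 genes with TNGCGTG, the element of the aryl hydrocarbon receptor, 13.4% were raised and 9.75% lowered. Of genes with CACGTG 14.4% were raised and 10.6% lowered, against 10.4% and 10.2% without it. These shares are descriptions, and matches of the motifs can overlap.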
